A study of Capra hircus with 3 samples.

Results

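RSPO3, LGR5, NKD1, AXIN2 and ZNRF3 carry and read out Wnt/beta-catenin signalling in the liver lobule, and their levels were followed here across cell types in goat liver. They were chosen by symbol, and each of the 5 matched 1 of the 27271 genes in the count matrices. Their identifiers were ENSCHIG00000013682 (RSPO3), ENSCHIG00000018190 (LGR5), ENSCHIG00000022144 (NKD1), ENSCHIG00000020538 (AXIN2) and ENSCHIG00000011353 (ZNRF3), all protein-coding. Livers of 15 female goats (Capra hircus) aged 3 to 4 years were dissociated with trypsin and profiled by droplet single-cell RNA sequencing. Con were healthy goats given the LRDS diet, NASH were goats with non-alcoholic steatohepatitis given the HRDS diet, and NASH-T were goats of the steatohepatitis tolerance group given the HRDS diet. Livers of 5 goats were pooled into 1 library per group, so diet, disease state, pool and handling cannot be told apart. No replicate exists, and no test between groups was made.

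Wnt ligands stabilise beta-catenin in the receiving cell, and a ubiquitin ligase at the membrane, ZNRF3 or its relative RNF43, removes the Wnt receptors again. R-spondins such as RSPO3 bind LGR receptors together with ZNRF3 or RNF43, take the ligase off the membrane and so strengthen the signal. In the liver lobule this signalling is strongest around the central vein, where it maintains the pericentral programme of hepatocytes. AXIN2, NKD1, ZNRF3 and LGR5 are genes that the pathway itself switches on, and the first 3 of these act back on it as brakes.

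After doublet removal the libraries held 7200 (Con), 8389 (NASH) and 8914 (NASH-T) cells. A UMI is 1 counted transcript molecule, and the median cell carried 2392.5, 2472 and 2127.5 of them. Pairs of libraries shared 20 to 23 cell barcodes. Levels are given as CPM, a gene's UMIs in a cell class scaled to the sum of all UMIs of that class in the library. Brackets after a CPM, share or ratio are exact 95% intervals, which cover counting error only and not the spread between goats. Triplets of values are in the order Con, NASH, NASH-T. The cells were clustered without the Wnt pathway genes, and classes carry "-like" because they rest on marker genes. Hepatocyte-like cells numbered 2859, 4061 and 3114, with all 18 hepatocyte markers found in all 3 libraries. Endothelial-like cells numbered 376, 550 and 1029, with 19 of 20 endothelial markers found in every library and FCN3 at 0. Stellate-like cells numbered 187, 360 and 307, with 17 of 19 stellate or fibroblast markers found in every library and LUM and RGS5 at 0. Found means at least 1 UMI, which other classes also reach, so the classes differ in marker sums. Hepatocyte markers summed to 21194, 24188.5 and 26346 CPM in hepatocyte-like and 3897, 4509 and 4427 CPM in endothelial-like cells. Endothelial markers summed to 19561, 19897 and 19405 CPM in endothelial-like and 3855, 4117 and 3877 CPM in stellate-like cells. Stellate or fibroblast markers summed to 26264, 23434 and 26409 CPM in stellate-like and 2047, 1674 and 1696 CPM in endothelial-like cells.

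RSPO3, the secreted amplifier of the pathway, was read mainly in stellate-like cells and at a lower level in endothelial-like cells. In stellate-like cells, the pericyte-like mesenchymal cells of the sinusoid, RSPO3 stood at 1149 [1050-1255], 1150 [1070-1234] and 1162 [1080-1248] CPM. These cells held 495 of 593, 766 of 894 and 748 of 879 RSPO3 UMIs, or 83.5%, 85.7% and 85.1% of the total. In endothelial-like cells RSPO3 stood at 89.6 [69.2-114], 80.8 [63.8-101] and 40.2 [31.9-50.0] CPM, from 65, 77 and 80 UMIs. Endothelial-like cells thus held 11.0%, 8.61% and 9.10% of RSPO3 UMIs, and the highest RSPO3 level of the sampled classes was not endothelial. Hepatocyte-like cells read 0.985, 0.856 and 1.52 CPM, and macrophage-like cells 0.745, 2.17 and 1.34 CPM. Cholangiocyte-like cells gave no RSPO3 UMI in any library.

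**Figure D1:**
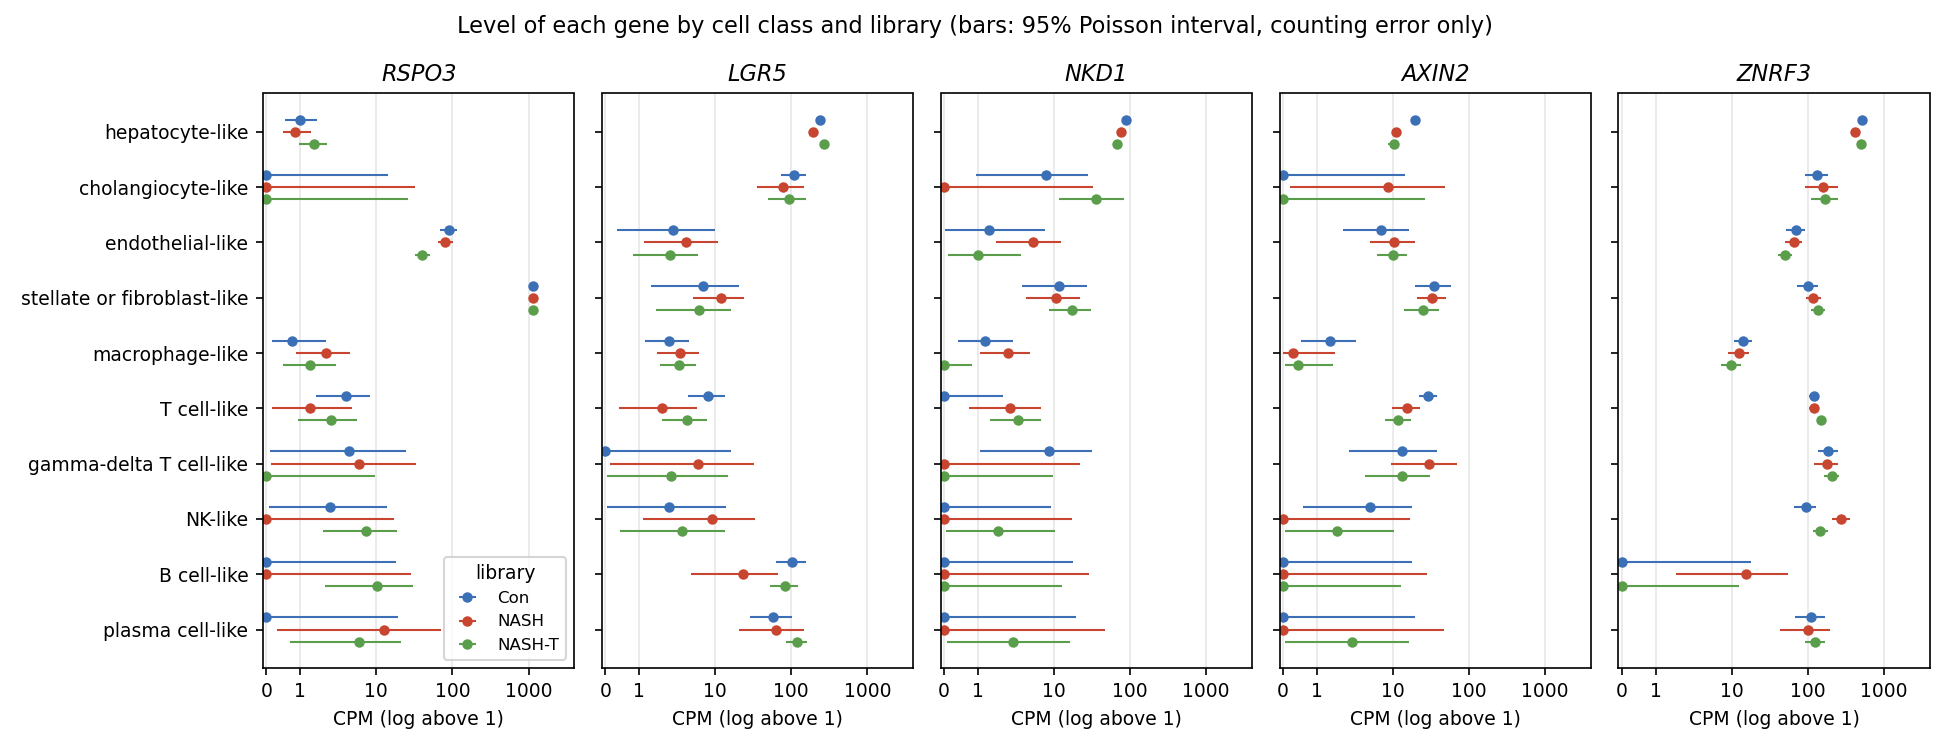
Level of each gene in CPM (horizontal axis, logarithmic above 1) in 10 cell classes, with 1 point per pooled library and 95% Poisson intervals of counting error. RSPO3 is highest in stellate-like cells and next in endothelial-like cells, while LGR5, NKD1 and ZNRF3 are highest in hepatocyte-like cells.

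The 2 sources of RSPO3 differed in how they read across libraries. In stellate-like cells the ratio of NASH to Con was 1.00 [0.893-1.12], that of NASH-T to Con 1.01 [0.901-1.14] and that of NASH-T to NASH 1.01 [0.912-1.12]. All 3 intervals hold 1, and none reaches 1.5-fold. Of the 6108, 5947 and 6580 genes measured in stellate-like cells in these comparisons, 6.32%, 4.91% and 3.72% were at least 1.5-fold higher with an interval excluding 1, and 3.08%, 3.3% and 5.35% were lower. In endothelial-like cells NASH to Con was 0.902 [0.640-1.27], NASH-T to Con 0.449 [0.319-0.632] and NASH-T to NASH 0.498 [0.359-0.689]. The NASH-T library was the low one, and Con and NASH lay within each other's counting error. By the same rule 6.43%, 5.88% and 4.03% of the 7515, 8773 and 8900 genes measured in endothelial-like cells were lower in NASH to Con, NASH-T to Con and NASH-T to NASH, and 3.82%, 4.37% and 4.91% were higher. RSPO3, LGR4 and TLE1 were the 3 Wnt pathway genes counted as lower among 32 measured in NASH-T to Con, and FZD4 was the 1 counted as higher. The low value depended on which cells were called endothelial. With a cluster that mixed endothelial and hepatocyte RNA added, NASH-T to Con was 0.845 [0.609-1.17] and NASH-T to NASH 1.03 [0.760-1.39]. Clustering each library on its own did not give a like-for-like comparison. The STAB2-led cluster of NASH (658 cells) was then classed as mixed and left out, and 74 NASH cells of an HMCN1-led cluster stood for the class, while the STAB2-led cluster of Con (445 cells) stayed in. The mixed cluster held 83, 177 and 34 cells and more UMIs than all endothelial-like cells of the same library in Con (877618 against 725468) and NASH (1726549 against 953271).

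The 2 endothelial-like clusters carried RSPO3 unequally. The larger, led by BMPER and STAB2 (a scavenger receptor of sinusoidal endothelium), held 278, 469 and 894 cells and read 116 [89.0-148], 93.4 [73.6-117] and 44.0 [34.6-55.2] CPM. The smaller, led by HMCN1 and MECOM and with VWF (a clotting factor carrier of larger vessels) among its top 10 genes, held 98, 81 and 135 cells and gave 1, 1 and 5 RSPO3 UMIs. Within the STAB2 cluster alone NASH-T to Con was 0.381 [0.269-0.540]. An RSPO3 UMI was seen in 7.98%, 6.73% and 4.28% of endothelial-like cells, against 0.431%, 0.149% and 0.275% of T cell-like cells. Median depth was 1692, 1421.5 and 1676 UMIs in the endothelial-like and 1153, 1002.5 and 1172 in the T cell-like cells. With 1000 UMIs drawn from each of the 312, 408 and 834 endothelial-like cells deep enough, 14, 21 and 26 cells were positive. The shares were 4.49% [2.47-7.41], 5.15% [3.21-7.76] and 3.12% [2.05-4.53]. These intervals overlap, so no order of the libraries is read at that equal depth.

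**Figure D2:**
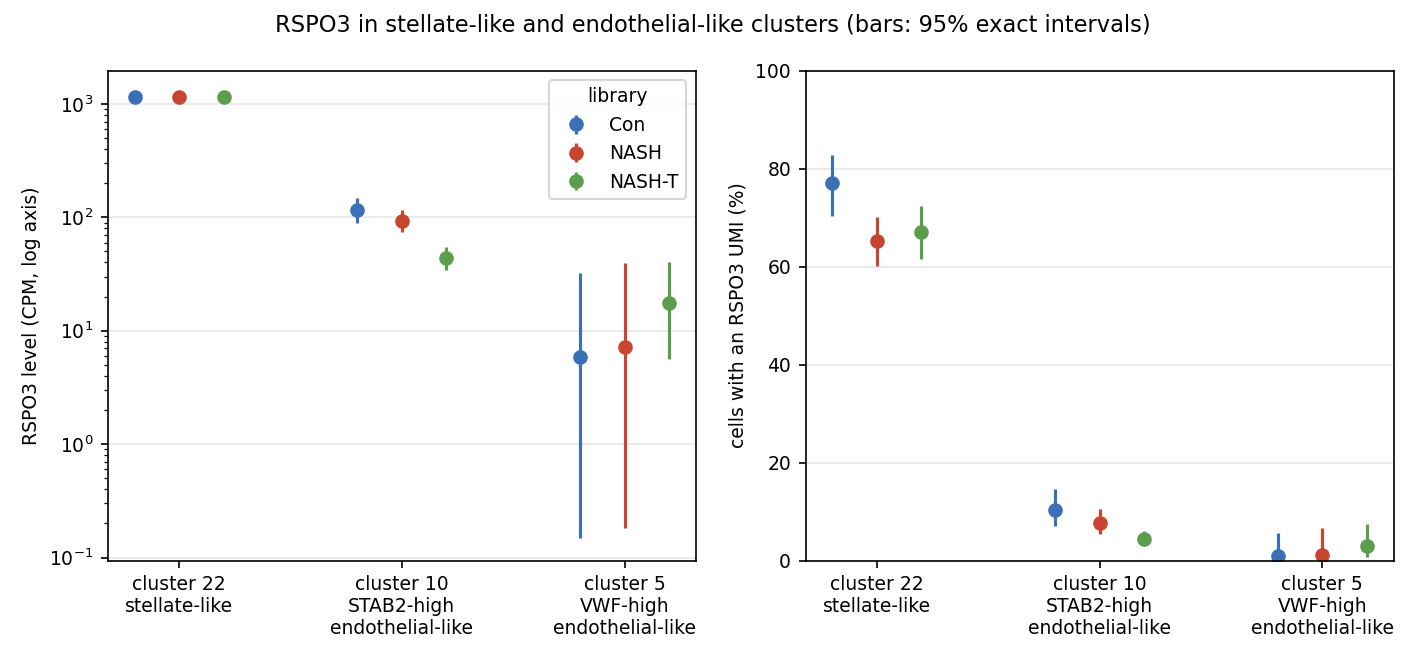
RSPO3 in the stellate-like cluster and the 2 endothelial-like clusters, as CPM on a logarithmic axis (left) and as the percentage of cells with an RSPO3 UMI (right), 1 point per pooled library with exact 95% intervals. The 3 libraries overlie each other in stellate-like cells, and NASH-T is lowest in the STAB2 cluster.

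The number of endothelial-like cells with an RSPO3 UMI was a like share of all cells in the 3 libraries, with overlapping intervals, while the share of all endothelial-like cells differed. RSPO3-positive endothelial-like cells numbered 30, 37 and 44, or 0.417% [0.281-0.594], 0.441% [0.311-0.607] and 0.494% [0.359-0.662] of all cells. Endothelial-like cells as a whole made up 5.22%, 6.56% and 11.5% of all cells. The positive cells carried 2.17, 2.08 and 1.82 RSPO3 UMIs each. A smaller share of RSPO3-bearing cells in the class and less RSPO3 RNA per cell cannot be told apart in the class level.

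RSPO3-positive endothelial-like cells differed from the other endothelial-like cells in the levels of the genes below in every library. The positive cells were also deeper, with a median of 1920, 1994 and 2402.5 UMIs against 1669.5, 1393 and 1650. WNT2, a Wnt ligand of the hepatic endothelium, stood at 270, 252 and 223 CPM in the positive cells and 48.6, 52.2 and 60.3 CPM in the negative cells. The ratios were 5.57 [2.94-10.2], 4.82 [2.78-8.13] and 3.70 [2.32-5.70]. SELP (P-selectin, an adhesion molecule of venous endothelium) was 3.53-, 5.09- and 5.19-fold higher in positive cells, and EMCN (endomucin, of veins and capillaries) 3.54-, 3.06- and 3.08-fold. VWF was 1.53-, 2.56- and 3.21-fold higher. STAB2 lay the other way, at 931, 744 and 266 CPM in positive and 2793, 3644 and 3113 CPM in negative cells. KDR, the main VEGF receptor, read 0.315, 0.491 and 0.441 of the negative level. The 10 genes with the most even excess were SAMD5 (13.5-, 9.90- and 14.6-fold), NRG1, CTTNBP2, DAPK1, CCBE1, KIF26B, FRY, WNT2, SELP and CAMK1D. The 10 with the largest deficit by that rank were RAP1GAP2, EDA, LNX1, TRPM3, DACH1, ECM1, STC1, TRPM6, RAPGEF1 and LRRC39.

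Lists of zonal endothelial genes were read in the same split, in which 492 of all 2612 eligible genes were higher and 566 lower in all 3 libraries. In this and later splits eligible genes had at least 50 UMIs in each library and measured list genes at least 20. Of 5 measured central vein and pericentral endothelial genes, WNT2, LHX6 and SELP were higher in positive cells of all 3 libraries and the other 2, CDH13 and WLS, were mixed. Of 6 measured periportal and arterial genes, 0 were higher in all 3 libraries and 2 were lower, EFNB2 at 0.392, 0.538 and 0.438 and CD36 at 0.752, 0.434 and 0.828. Of 6 BMP and angiocrine genes, BMP2, BMP6, KDR and FLT1 were lower in all 3 and HGF was higher, at 7.65-, 7.91- and 1.68-fold. HGF, the hepatocyte growth factor, is also a leading gene of the stellate-like cluster. The 19 stellate or fibroblast markers summed to 2145, 1890 and 1242 CPM in RSPO3-positive endothelial-like cells and to 2037, 1651 and 1724 CPM in the negative ones. These sums join genes that went opposite ways. HGF, on that list, read 1125, 1027 and 283 CPM in positive and 147, 130 and 168 CPM in negative cells. CCBE1, also on it, read 375, 328 and 343 against 42.5, 60.3 and 19.2 CPM, while ECM1, on the same list, was lower in positive cells. In stellate-like cells they summed to 26264, 23434 and 26409 CPM. RELN, the leading stellate gene here, stood at 0, 54.6 and 137 CPM in the positive endothelial-like cells against 12396, 10674 and 12693 in stellate-like cells. DCN, a matrix proteoglycan gene, had 0, 0 and 27 UMIs in the positive cells. The part of stellate RNA in the excess of HGF and CCBE1 was not tested. Leaving out endothelial-like cells with a RELN or DCN UMI gave RSPO3 ratios of 0.806, 0.347 and 0.430.

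Within the stellate-like cells RSPO3 was widespread, with a UMI in 77.0%, 65.3% and 67.1% of cells. RSPO2, a related R-spondin, was also largely a stellate gene in these data, at 344, 326 and 298 CPM from 148, 217 and 192 UMIs. Stellate-like cells held 148 of 159, 217 of 249 and 192 of 223 RSPO2 UMIs. RSPO2 was higher in RSPO3-positive than in RSPO3-negative stellate-like cells, by 2.65-fold [1.47-5.26], 3.28-fold [2.14-5.24] and 18.1-fold [6.95-67.1]. At 1000 UMIs per cell these ratios were 1.48, 1.88 and 1.65, closer to each other than without thinning. NEDD9, ANO3, PRKCB, TNC and FGFR2 were also higher in the positive cells of every library. NPR3, a natriuretic peptide clearance receptor, was lower at 0.432, 0.322 and 0.337, and PTH1R, the parathyroid hormone receptor, at 0.549, 0.448 and 0.466.

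LGR5, the receptor that binds R-spondins, was a hepatocyte gene in these livers. Hepatocyte-like cells read 237 [229-245], 192 [186-198] and 270 [262-279] CPM from 3369, 3808 and 4097 UMIs, which was 92.6%, 89.1% and 92.9% of all LGR5 UMIs. NASH was the lowest and NASH-T the highest library, and the 3 intervals did not overlap. NASH to Con was 0.809 [0.772-0.847], NASH-T to Con 1.14 [1.09-1.19] and NASH-T to NASH 1.41 [1.35-1.47], none of which reached 1.5-fold. T cell-like cells read 8.02, 2.00 and 4.22 CPM, and macrophage-like cells 2.48, 3.41 and 3.35 CPM. An LGR5 UMI was seen in 40.2%, 33.2% and 37.6% of hepatocyte-like cells and in 1.01%, 0.223% and 0.549% of T cell-like cells. The median depth of hepatocyte-like cells was 4206, 3866 and 4040.5 UMIs. At 1000 UMIs per cell, in 2684, 3856 and 2916 hepatocyte-like cells, the shares were 18.4%, 14.7% and 18.9%.

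Outside hepatocytes LGR5 was read above the T cell-like level in small classes. Cholangiocyte-like cells read 109, 78.2 and 92.1 CPM from 28, 9 and 13 UMIs. B cell-like cells read 102, 23.1 and 82.2 CPM, and plasma cell-like cells 57.7, 62.8 and 120 CPM, from 3 to 41 UMIs. Mast or basophil-like cells had 0, 5 and 8 LGR5 UMIs and dividing cells 10, 4 and 0. LGR4, the related R-spondin receptor, stood at 233, 271 and 242 CPM in hepatocyte-like cells and at 102, 72.4 and 55.8 CPM in endothelial-like cells. The endothelial-like ratio of NASH-T to Con for LGR4 was 0.547 [0.404-0.744]. LGR6, the remaining receptor of the family, had 21, 24 and 26 UMIs in hepatocyte-like cells.

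ZNRF3, the membrane ligase that LGR receptors and R-spondins act on, had 87.8%, 87.0% and 88.6% of its UMIs in hepatocyte-like cells. It was also read in T cell-like, gamma-delta T cell-like and NK-like cells, while B cell-like cells gave 0, 2 and 0 UMIs. Dividing cells read 471, 270 and 53.3 CPM from 123, 46 and 7 UMIs. Hepatocyte-like cells read 509 [497-521], 412 [403-421] and 494 [483-506] CPM. NASH was the low library at 0.810 [0.784-0.836] of Con, and NASH-T to Con was 0.972 [0.941-1.00]. T cell-like cells read 119, 122 and 149 CPM, and macrophage-like cells 14.2, 12.4 and 9.84 CPM. A T cell-like cluster led by LEF1 and CAMK4 read 381 [291-491], 488 [366-636] and 549 [476-629] CPM. RNF43, the partner ligase, stood at 198, 216 and 178 CPM in hepatocyte-like cells.

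AXIN2, a scaffold of the beta-catenin destruction complex and a common readout of the pathway, was the only one of the 4 hepatocyte genes past 1.5-fold. Hepatocyte-like cells read 19.8 [17.5-22.2], 11.0 [9.61-12.6] and 10.2 [8.68-11.97] CPM from 281, 219 and 155 UMIs. Con stood above both other libraries with no overlap of intervals, and NASH and NASH-T overlapped. NASH to Con was 0.557 [0.465-0.668], NASH-T to Con 0.517 [0.422-0.632] and NASH-T to NASH 0.928 [0.751-1.15]. Among the 13288 genes measured in hepatocyte-like cells, 11.0% were lower by this rule in NASH to Con and 5.22% higher. For NASH-T to Con the shares were 7.94% and 4.63% of 13138 genes. With 4 genes read, 1 call is too few to set apart from that background.

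AXIN2 was also low in T cell-like cells of the HRDS libraries, which carried it at 29.2 [21.7-38.4], 15.3 [9.70-23.0] and 11.8 [7.86-17.1] CPM. There NASH to Con was 0.524 [0.306-0.873] and NASH-T to Con 0.405 [0.246-0.655]. The LEF1-led T cell-like cluster read 89.0, 36.1 and 23.9 CPM from 14, 4 and 9 UMIs. Stellate-like cells read 34.8, 33.0 and 24.9 CPM with overlapping intervals. The T cell-like value lay above the hepatocyte-like value in every library, but the intervals of the 2 classes overlapped in each. AXIN2 was thus not a hepatocyte-only gene, with 74.1%, 72.5% and 66.2% of its UMIs in hepatocyte-like cells. Macrophage-like cells, with 6, 1 and 2 UMIs, read 1.49, 0.310 and 0.447 CPM.

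NKD1, an inhibitor that binds Dishevelled, was read mainly in hepatocyte-like cells, which held 89.6%, 91.4% and 95.1% of its UMIs. It stood at 87.7 [82.9-92.7], 76.5 [72.7-80.4] and 68.0 [63.9-72.2] CPM from 1246, 1520 and 1030 UMIs. The ratios were 0.873 [0.809-0.941], 0.775 [0.713-0.843] and 0.889 [0.820-0.962] for NASH to Con, NASH-T to Con and NASH-T to NASH. T cell-like cells had 0, 4 and 8 NKD1 UMIs and endothelial-like cells 1, 5 and 2.

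**Figure D3:**
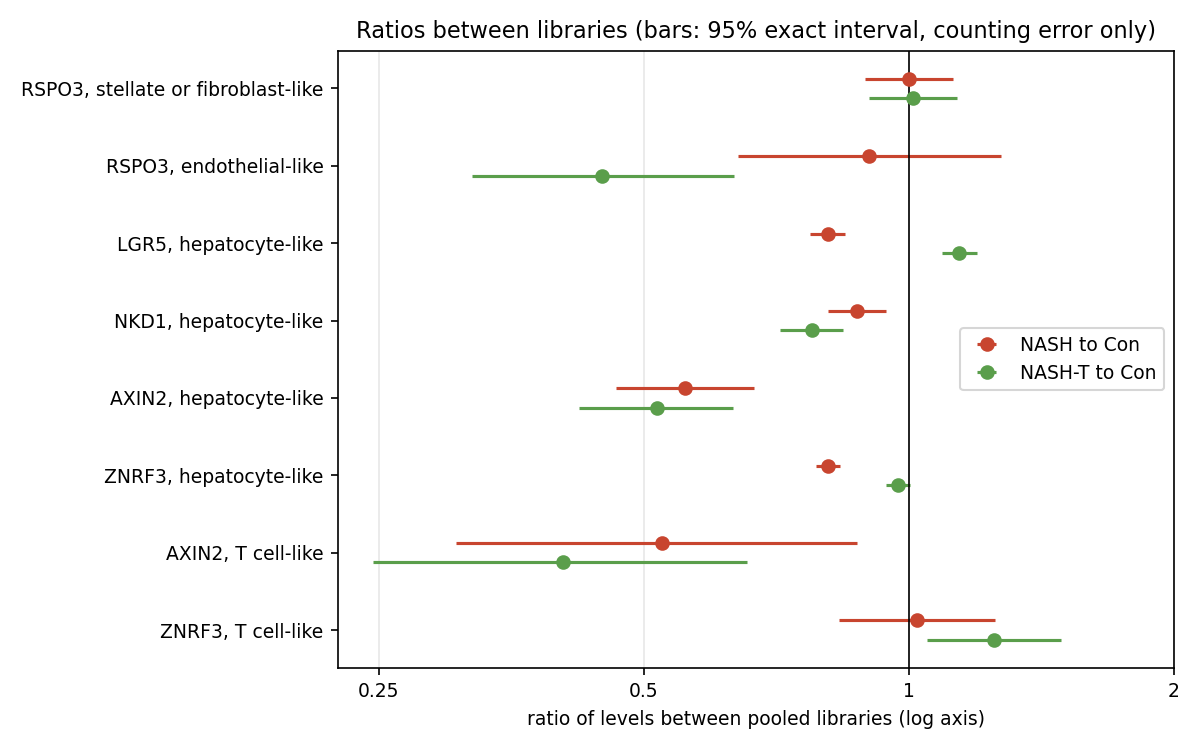
Ratio of levels between pooled libraries (horizontal, logarithmic axis) for NASH to Con and NASH-T to Con, with exact 95% intervals of counting error. RSPO3 lies at 1 in stellate-like cells and below 1 for NASH-T in endothelial-like cells, and AXIN2 lies near 0.5 in hepatocyte-like and T cell-like cells.

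Hepatocyte-like cells fell into 6 clusters that the libraries filled unequally, which bears on every ratio of the hepatocyte-like class above. Cluster 8, led by LGR5, FMO1 and NKD1 although the Wnt genes took no part in the clustering, held 1205, 166 and 959 cells. Cluster 2, led by CYP7A1 (the rate-limiting enzyme of bile acid synthesis), held 14, 1385 and 52, and cluster 1, led by FASN (fatty acid synthase), held 3, 1376 and 30. Cluster 0 carried periportal genes and held 515, 432 and 688 cells, and clusters 4 and 3 held 873, 499 and 1064 and 249, 203 and 321. Cluster 3 had a median of only 883 UMIs. Most NASH hepatocyte-like cells thus lay in clusters that few Con or NASH-T cells entered.

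LGR5 in cluster 8 read 476 [457-495], 444 [391-502] and 515 [492-539] CPM, and in cluster 4 140 [131-150], 248 [231-266] and 262 [250-274] CPM. In the NASH-filled cluster 2 it read 370 CPM, and in cluster 1 69.5 CPM. The periportal cluster 0 read 16.7, 47.8 and 13.7 CPM, with NASH to Con at 2.87 [1.98-4.21]. Within cluster 4, LGR5 was thus higher in both HRDS libraries, at 1.77 [1.60-1.95] and 1.87 [1.72-2.02] of Con.

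NKD1 in cluster 8 read 174 [163-186], 405 [354-461] and 153 [140-166] CPM. In cluster 4 it read 55.2, 94.3 and 54.0 CPM, and in cluster 0 it had 3, 35 and 6 UMIs. Within each of these 3 clusters NASH was the high library, with NASH to Con at 2.32 [2.00-2.69] in cluster 8, 1.71 [1.46-2.00] in cluster 4 and 13.6 [4.30-69.3] in cluster 0. Over the class as a whole the same ratio was 0.873, and over the 4 clusters that every library filled with at least 100 cells it was 1.08. The direction of NKD1 between NASH and Con therefore rested on which hepatocyte clusters were compared.

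AXIN2 in cluster 8 read 33.0 [28.2-38.5], 32.0 [18.9-50.5] and 16.3 [12.4-21.0] CPM, and in cluster 4 14.6, 14.6 and 9.38 CPM. NASH to Con was 0.968 [0.559-1.58] in cluster 8 and 0.996 [0.682-1.44] in cluster 4. NASH-T to Con was 0.493 [0.360-0.668] and 0.641 [0.462-0.886] in the same clusters. NASH-T was thus low within clusters, and NASH was low in the class with only 166 of its cells in cluster 8. ZNRF3 in cluster 8 read 665, 948 and 709 CPM and in cluster 4 478, 508 and 494 CPM.

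A score of position in the lobule was built for each hepatocyte-like cell from 18 pericentral minus 26 periportal genes, with no member of the Wnt lists among them. FMO1 and CYP7A1 are among the score genes. Each library was cut into 3 bins of equal cell number. Bins are ranges of a score and not cell types, and 447, 534 and 490 cells lay within 0.05 of a cut. Because each library has its own cuts, equal bins do not mean equal positions. Each score gene was scaled over the hepatocyte-like cells of its own library, so scores of different libraries have no common scale. Read within each library, the median score of cluster 8 was 0.26 in Con, 0.44 in NASH and 0.26 in NASH-T. That of cluster 0 was -0.54, -0.44 and -0.52.

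All 4 hepatocyte genes fell from the most pericentral to the most periportal bin in all 3 libraries. NKD1 had the largest ratios, at 194, 177 and 156 CPM in the pericentral bin and 8.67, 5.54 and 4.27 CPM in the periportal bin. Its ratios were 22.3 [16.3-31.3], 31.9 [22.9-45.8] and 36.4 [23.7-59.2]. LGR5 read 403, 368 and 512 CPM in the pericentral bin and 60.7, 27.7 and 49.6 CPM in the periportal bin, with ratios of 6.64 [5.86-7.54], 13.3 [11.4-15.6] and 10.3 [9.06-11.8]. AXIN2 read 32.6, 21.7 and 16.0 CPM against 9.73, 3.69 and 5.49 CPM, with ratios of 3.35 [2.39-4.76], 5.87 [3.79-9.46] and 2.92 [1.87-4.69]. ZNRF3 was the flattest, at 684, 605 and 721 CPM against 326, 230 and 285 CPM, with ratios of 2.10 [1.97-2.23], 2.62 [2.47-2.79] and 2.53 [2.38-2.69]. With cells thinned to 1000 UMIs the ratios were 4.85, 9.06 and 4.16 for LGR5, 12.5, 10.6 and 21.1 for NKD1, 3.30, 2.80 and 6.67 for AXIN2 and 1.74, 2.20 and 2.44 for ZNRF3. All 4 genes thus kept their direction at equal depth, with smaller ratios except for AXIN2 in NASH-T, and the order of the libraries changed. Median depth ran from 3914 to 4155 UMIs over the bins of NASH-T and from 4021 to 4572 over those of Con.

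**Figure D4:**
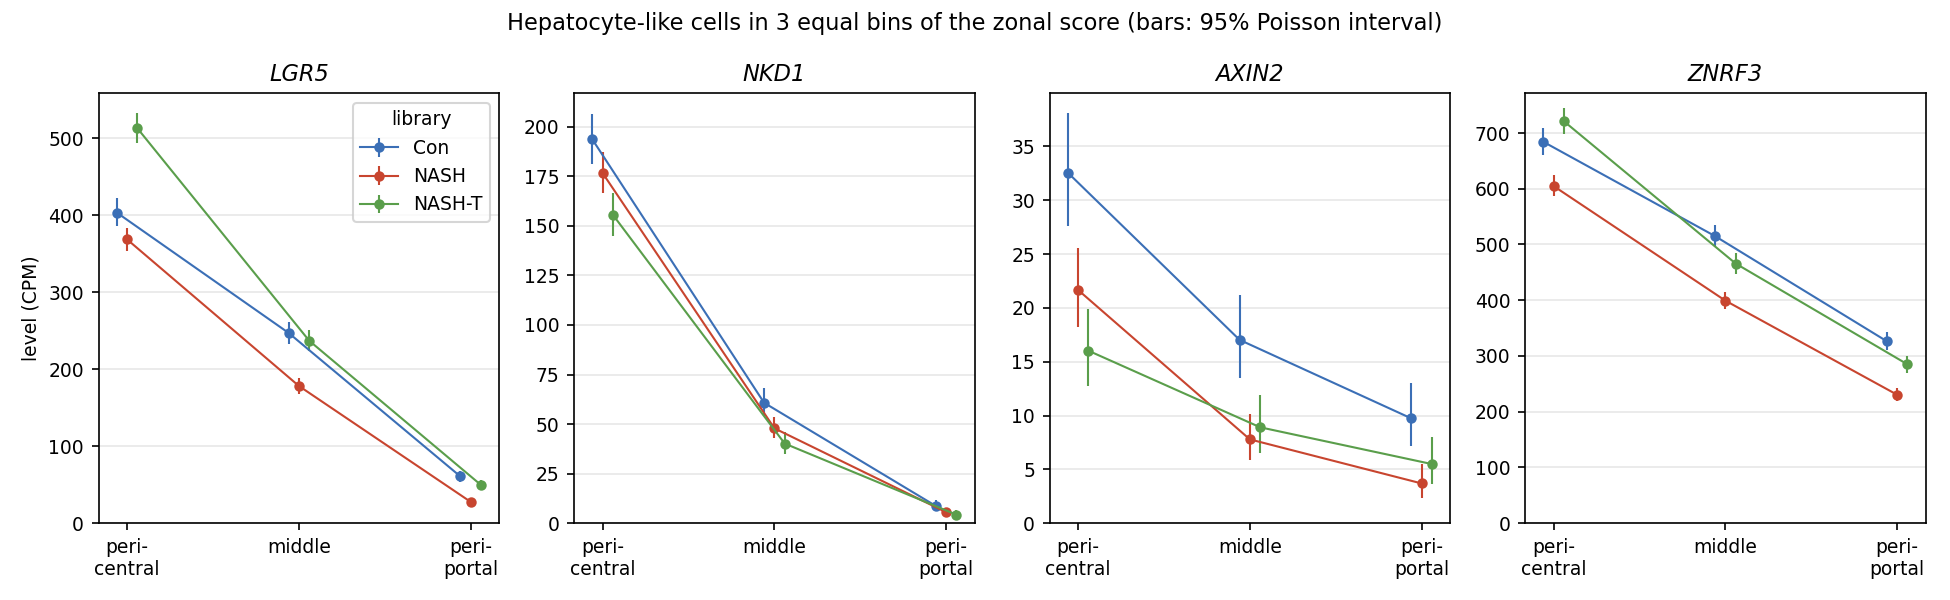
Level in CPM of LGR5, NKD1, AXIN2 and ZNRF3 in 3 equal bins of hepatocyte-like cells ordered by a pericentral minus periportal score, 1 line per pooled library with 95% Poisson intervals. Every line falls from the pericentral to the periportal bin, and AXIN2 is highest in Con in all 3 bins.

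The middle bins lay between the outer ones for all 4 genes. LGR5 there read 247, 178 and 237 CPM, NKD1 60.8, 47.9 and 40.2 CPM, AXIN2 17.0, 7.78 and 8.90 CPM and ZNRF3 515, 399 and 466 CPM. For LGR5 the NASH library fell short most in the periportal bin, with NASH to Con at 0.456 [0.376-0.551], against 0.721 [0.665-0.782] in the middle and 0.914 [0.860-0.971] in the pericentral bin. For AXIN2 the NASH to Con ratio was 0.379 [0.221-0.634], 0.457 [0.317-0.654] and 0.665 [0.526-0.841] from periportal to pericentral. NASH-T to Con for AXIN2 was 0.564 [0.337-0.927], 0.523 [0.355-0.762] and 0.492 [0.372-0.647] in the same order. AXIN2 was thus below Con in every bin of both HRDS libraries.

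Related genes showed that not every pathway component followed this slope. TBX3, a Wnt-induced transcription factor, was 1.96, 3.27 and 2.35 times as high in the pericentral as in the periportal bin. RNF43 was nearly flat, at 1.28, 1.22 and 1.25. LGR4 ran the other way, at 0.697 [0.640-0.759], 0.662 [0.619-0.709] and 0.680 [0.627-0.737], so that LGR5 and LGR4 had opposite slopes along the same score in every library.

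Cells with an LGR5 UMI were compared with the other hepatocyte-like cells, 1148 against 1711 in Con, 1349 against 2712 in NASH and 1170 against 1944 in NASH-T. Positive cells were deeper, with a median of 4788.5, 4850 and 4739 UMIs against 3807, 3497 and 3632. NKD1 stood at 141, 145 and 127 CPM in positive and 39.3, 24.3 and 18.6 CPM in negative cells, a ratio of 3.58 [3.14-4.10], 5.97 [5.23-6.83] and 6.84 [5.75-8.17]. AXIN2 was 1.76-, 2.84- and 1.99-fold and ZNRF3 1.46-, 1.74- and 1.80-fold higher. At equal depth NKD1 was 3.26-, 3.79- and 3.42-fold higher, so the difference between libraries in that ratio was not kept. Genes were again ranked by the ratio nearest to 1 of the 3 libraries. Beside NKD1, the largest excess by that rank was seen for TSPEAR, RGSL1, TACC1, GRIK2, ESRRG, NPR3, CRYBG3, SLC6A6 and CTSL. The largest deficit by that rank was seen for CCDC148, ASPG, KCND3, UPP2, SHROOM3, HAL, TCF7L1, ATP10B, LAMB1 and RORB.

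Of all 7799 eligible genes (at least 50 UMIs in each library), 1409 were higher and 2015 lower in LGR5-positive cells of all 3 libraries. List genes counted as measured at 20 UMIs in each library, a lower floor. Of 20 measured pericentral genes other than the members, 15 were higher in LGR5-positive cells of all 3 libraries and 4 were lower. FMO1, a flavin monooxygenase, was 2.09-, 2.72- and 2.83-fold higher, and CYP1A2 1.75-, 2.73- and 2.46-fold. SLC1A2, a glutamate transporter of the pericentral list, was lower at 0.834, 0.729 and 0.795. Of 23 measured periportal genes, 20 were lower in all 3 libraries and 1 was higher. UPP2 (uridine phosphorylase) was at 0.252, 0.335 and 0.190, HAL (histidine ammonia-lyase) at 0.310, 0.345 and 0.249 and GLS2 (glutaminase) at 0.320, 0.391 and 0.248 of the negative level. LGR4 was again the opposite of LGR5, at 0.822, 0.867 and 0.746.

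**Figure D5:**
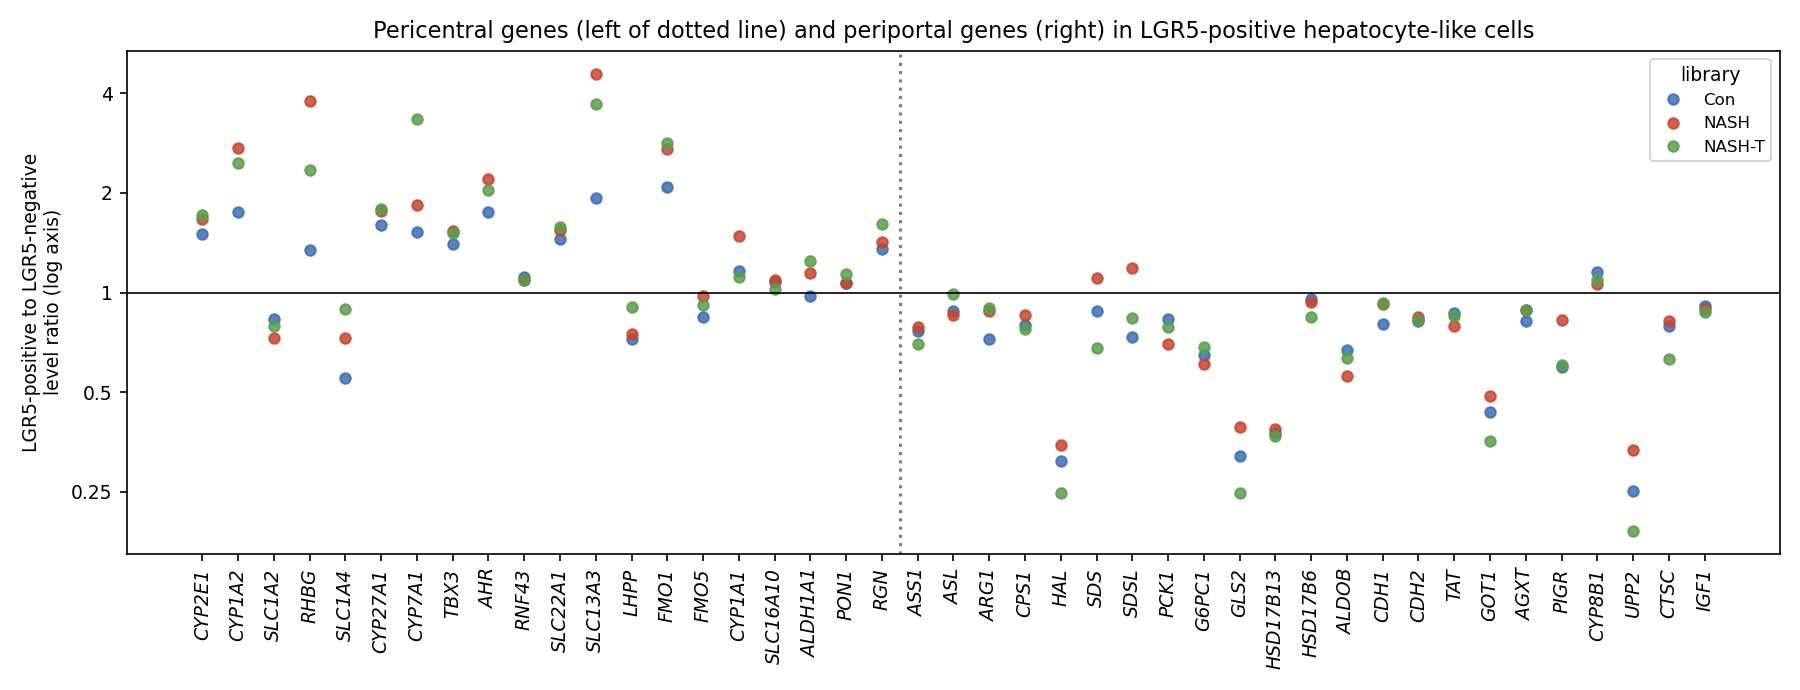
Ratio of the level in LGR5-positive to that in LGR5-negative hepatocyte-like cells (vertical, logarithmic axis) for pericentral genes (left of the dotted line) and periportal genes (right), 1 point per pooled library. Of the pericentral genes 15 of 20 lie above 1 in every library, and of the periportal genes 20 of 23 lie below 1 in every library.

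The same split was made by the other 3 genes. Cells positive for NKD1 had 13 of 20 pericentral genes higher and 19 of 23 periportal genes lower in all 3 libraries. For AXIN2 the counts were 13 and 16, and for ZNRF3 13 and 16. Over the 7799 eligible genes, 1430 were higher and 1965 lower for NKD1, 1094 and 1378 for AXIN2 and 1334 and 1698 for ZNRF3. AXIN2-positive cells were deeper than the negative ones, with a median of 5334, 5533 and 5515 UMIs against 4077, 3817.5 and 3993. At 1000 UMIs per cell the AXIN2 split, with 50, 50 and 34 positive cells, had 4 of 18 pericentral genes higher and 11 of 20 periportal genes lower in all 3 libraries. The thinned counts were 12 of 18 and 17 of 20 for LGR5, 13 and 17 for NKD1 and 13 and 14 for ZNRF3. Of the 4872 eligible genes at that depth, 773 were higher and 977 lower for LGR5, 786 and 956 for NKD1 and 751 and 810 for ZNRF3. For AXIN2 they were 531 and 819 of 4873. RGSL1 and TACC1 were among the 10 genes with the largest excess by that rank in all 4 splits before thinning. Cells share a library and a tissue here, so these counts describe the 3 pools.

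The wider pathway was read from lists of 95 genes in the matrices, of which 60 had enough UMIs in hepatocyte-like cells for NASH to Con. Of these, 5 were at least 1.5-fold higher and 5 lower, and for NASH-T to Con 5 of 61 were higher and 7 lower. Their median log2 ratio was -0.11 and 0.01, beside -0.12 and -0.10 over all genes measured. In NASH-T to NASH, 0 of 60 were higher and 3 lower, beside 7.82% and 5.02% of all genes.

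Among ligands, 0 of 5 measured moved in NASH to Con, with WNT5A, a largely non-canonical ligand, at 56.7, 72.2 and 63.6 CPM. WNT2 in endothelial-like cells stood at 68.9, 71.3 and 69.8 CPM, level across the libraries while RSPO3 in the same cells was lower in NASH-T. WLS, the carrier that secretes Wnt proteins, read 205, 231 and 197 CPM there. Among receptors FZD7 was higher in NASH hepatocyte-like cells (6.40 to 9.91 CPM), and FZD4 was higher in NASH-T endothelial-like cells (33.1 to 56.3 CPM, ratio 1.70 [1.09-2.77]). GPC3, a heparan sulphate proteoglycan that binds Wnt, read 34.2, 56.3 and 61.9 CPM in hepatocyte-like cells.

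Among secreted and membrane inhibitors WIF1 was the lowest against Con, at 7.88, 1.01 and 1.65 CPM, a ratio of 0.128 [0.0752-0.207] in NASH and 0.209 [0.130-0.325] in NASH-T. KREMEN1, a DKK co-receptor, was lower in NASH-T at 0.552 [0.457-0.666]. DKK3 in stellate-like cells read 83.6, 27.0 and 37.3 CPM. Among nuclear factors TCF7L1, mostly a repressor, rose from 8.02 CPM in Con to 20.3 and 27.3 CPM, and TLE4, a Groucho co-repressor, from 40.7 to 84.5 and 97.1 CPM. TLE1, a related co-repressor, was lower in NASH, at 401 against 716 CPM. CTNNBIP1, which keeps beta-catenin from TCF, was 1.89-fold and 1.79-fold higher.

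Of 14 measured Wnt target genes, 0 were higher and 2 lower in NASH to Con, AXIN2 and TNFRSF19. In NASH-T to Con 0 were higher and 4 lower, with NOTUM (0.553 [0.376-0.806]) and CCND1 (0.532 [0.433-0.652]) beside AXIN2 and TNFRSF19. These counts and those of the zonal lists stand beside 5.22% of all measured genes higher and 11.0% lower in NASH to Con, and 4.63% and 7.94% in NASH-T to Con. Of 24 pericentral genes, the 4 hepatocyte members included, 2 were higher and 5 lower in NASH, among them CYP7A1, CYP1A1 and CYP27A1. CYP7A1 stood at 424 against 208 CPM, CYP1A1 at 0.451 and CYP27A1 at 0.516 of Con. In NASH-T 1 was higher and 4 lower, AXIN2 among the lower in both. Of 24 periportal genes 4 were higher and 3 lower in NASH, and of 25 in NASH-T 2 were higher and 3 lower, so neither zonal list moved one way.

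Genes whose levels most resembled each member were found over 62 pairs of cluster and library, as Pearson r of log2(CPM + 5) among 11486 genes. The pairs share libraries and clusters of unequal depth, so r is a description only. RSPO3 was closest to ADAMTS13 (0.885), MYOC, EFNA2, HGF (0.842) and LHX2. LGR5 was closest to SH3RF2 (0.893), PRLR, CSAD, MYH14 and MINAR1. NKD1 was closest to ABCA9 (0.892), AOX1, ADRA1A, TMEM178A and CACNA1C. AXIN2 had no close neighbour, with RORA and ZNRF3 at 0.559 and STS, KREMEN1 and PAWR below. ZNRF3 was closest to GLCE (0.805), GAREM1, HLF, ERC1 and SPEF2. Among the members, LGR5 and NKD1 had 0.701, NKD1 and ZNRF3 0.615, and LGR5 and AXIN2 0.157.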

How the data were processed

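The deposited values are UMI counts per gene and barcode for 3 libraries. Reads were processed with Cell Ranger 7.0.0, per the submitters' processing notes, and the genome build is not given in the sources used here. Cells had at least 200 genes, 500 UMIs and at most 20% mitochondrial UMIs, and Scrublet (scanpy 1.11.5) removed 284, 342 and 459 doublets. Kept cells carried 23752171, 29059323 and 27005297 UMIs. Leiden clustering (2000 variable genes without the Wnt lists, 30 components, resolution 0.8, no batch correction) gave 26 clusters, named from 20 marker sets of which 188 of 228 genes were in the matrices. Clusters with hepatocyte markers at 0.5 of the hepatocyte level and another class's markers were mixed and left out. UMIs were summed per class and library. Ratio intervals are exact conditional binomial, CPM intervals exact Poisson and shares exact binomial. Genes with 20 or more UMIs in the 2 libraries together count as measured, and as higher or lower at 1.5-fold with an interval excluding 1. The ratio calls were tested on data simulated with the counting error that the intervals assume and with changes larger than 1.5-fold. That test does not cover the spread between goats or cells. Genes of positive cells were ranked by the ratio nearest to 1 of the 3 libraries. Eligible genes there had a symbol and at least 50 UMIs in each library, and list genes at least 20 in each. Named pathway genes are up to 4 per list and comparison with the largest called ratios, and likeness names the 5 closest genes. The members, lists, markers and rules were chosen with earlier results of these data known.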

Additional observations from a re-analysis of the deposited data

Results flagged for a closer look

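LGR5 was highest not in hepatocytes but in an unnamed cluster of 38 cells (6, 21 and 11), where it read 1457 [849-2333], 2250 [1884-2666] and 2405 [1955-2929] CPM from 17, 133 and 99 UMIs. The cluster was led by BCL11A, MMP16, BLNK and TCF4, its markers fitted dendritic cells best but did not meet the naming rule, and it entered no class above. In Con and NASH, NKD1 was above its level in every named class in a second unnamed cluster of 195 cells, led by EPHA3 and C7 with DCN among its top 10 genes, at 232 and 153 CPM. In NASH-T the same cluster read 58.6 CPM, below the hepatocyte-like 68.0 CPM. These values rest on 32, 17 and 7 UMIs.

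Effects of opposite direction under the same contrast were seen for 2 genes. None of these differences was tested, and each interval covers counting error only. For LGR5, NASH-T to NASH was 0.286 [0.199-0.407] in hepatocyte cluster 0 but 2.05 [1.42-3.01] in cluster 3 and 1.16 [1.02-1.33] in cluster 8. For ZNRF3, NASH to Con was 2.94 [1.93-4.54] in NK-like cells and 0.810 in hepatocyte-like cells. NASH-T to NASH was 0.527 [0.372-0.750] in NK-like cells, 1.22 [1.02-1.47] in T cell-like cells and 1.20 in hepatocyte-like cells. The NK-like values rest on 38, 60 and 79 UMIs.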

How the results depend on the processing

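No paired analysis was possible because each group is 1 pooled library. Of 333 alternative values, 268 kept their direction and size, 62 moved and 3 reversed. For LGR5, NKD1, AXIN2 and ZNRF3 the setting with mixed clusters added no cell, since no mixed cluster was of the hepatocyte class. Those values equal the main ones by construction and count among the 268. Stricter cell filters, kept doublets, Wnt genes in the clustering, a finer resolution and totals without the 50 most abundant genes left every value within its main interval. The shared hepatocyte clusters, the larger endothelial cluster alone, the exclusion of RELN or DCN cells and the changes to the score genes and depth were chosen after seeing the data. For RSPO3 in endothelial-like cells, clustering each library on its own gave 0.168 (NASH to Con), 0.865 (NASH-T to Con) and a reversed 5.15 (NASH-T to NASH). There the NASH class had lost its STAB2-led cluster of 658 cells to the mixed class and held 74 cells of an HMCN1-led cluster, so these values compare unlike cells. Adding mixed clusters gave 0.845 (NASH-T to Con) and a reversed 1.03 (NASH-T to NASH). For hepatocyte-like cells, a mean over cells gave LGR5 0.735 (NASH to Con) and 1.03 (NASH-T to Con), NKD1 0.809 and 0.694, and ZNRF3 0.937 (NASH-T to Con). Thinning to 1000 UMIs gave NKD1 0.659 (NASH to Con) and 0.621 (NASH-T to Con), and ZNRF3 1.15 (NASH-T to NASH). For shares of positive cells, thinning gave LGR5 1.03 (NASH-T to Con) and 1.29 (NASH-T to NASH), and NKD1 0.680 (NASH to Con) and 0.632 (NASH-T to Con). Shared hepatocyte clusters gave NKD1 a reversed 1.08 (NASH to Con) and 0.698 (NASH-T to NASH), and ZNRF3 0.919 (NASH to Con) and 1.05 (NASH-T to NASH). Subtracting the T cell-like level gave ZNRF3 0.745 (NASH to Con) and 0.888 (NASH-T to Con). It gave no value for AXIN2, whose T cell-like level was the higher one. At a ratio of at least 2, Wnt genes in hepatocyte-like cells counted 2 higher and 1 lower of 60 (NASH to Con). They counted 3 and 3 of 61 (NASH-T to Con) and 0 lower of 60 (NASH-T to NASH). In endothelial-like cells they counted 0 lower of 26 (NASH to Con) and 0 higher and 1 lower of 32 (NASH-T to Con). In NASH-T to NASH 0 of 34 were higher there, and 0 of 28 were lower in stellate-like cells. With at least 50 UMIs, stellate-like cells counted 1 lower of 19 (NASH-T to Con), and 0 higher and 1 lower of 19 (NASH-T to NASH). At 1.5-fold and 20 UMIs the stellate-like counts were 0 higher and 2 lower of 25 (NASH-T to Con) and 1 and 2 of 28 (NASH-T to NASH). The share of all genes was not counted at the ratio of 2 or the 50 UMIs, so these counts have no background. In LGR5-positive against negative cells, thinning gave NKD1 3.79 (NASH) and 3.42 (NASH-T), and ZNRF3 1.58, 1.62 and 1.61. For the pericentral to periportal ratio, 5 bins gave LGR5 13.7, 28.3 and 20.3, NKD1 64.3, 87.6 and 90.8, AXIN2 11.0 (NASH), and ZNRF3 2.65, 3.27 and 3.13. The score without FMO1 gave LGR5 5.66 (Con) and 8.55 (NASH-T), and NKD1 15.4 (Con) and 20.7 (NASH-T). Thinned cells gave LGR5 4.85, 9.06 and 4.16, NKD1 12.5, 10.6 and 21.1, AXIN2 2.80 (NASH) and 6.67 (NASH-T), and ZNRF3 1.74 (Con) and 2.20 (NASH). The AXIN2 ratios between libraries over all hepatocyte-like cells stayed within their main intervals under every alternative that gave a value. The setting with mixed clusters is no alternative there, since it added no cell. Within clusters 8 and 4, however, NASH to Con was 0.968 and 0.996. Causes of these moves were not tested. One pool per group leaves the spread between goats unmeasured, and genes of few UMIs, such as AXIN2, have wide intervals within clusters.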
